A study of Homo sapiens with 24 samples.

Results

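NCI-H660 cells were profiled after 24 hours with 0.5 µM I-BET762 or with DMSO vehicle, on 2 arrays each, 4 of the 24 arrays in the series. The arrays were chosen by their labelled cell line and dose. Of 54613 non-control probe sets, 28099 had a group mean of 100 or more with or without the compound and were called detected. They represent 12191 of the 19775 named genes, each read from 1 probe set. The series holds 4 prostate cancer lines (LNCaP, VCaP, PC3 and NCI-H660), each treated for 24 hours with vehicle, with 0.5 µM or with 10 µM of I-BET762, in 2 biological replicates. I-BET762 is also called GSK525762A. NCI-H660 is a single established line of neuroendocrine prostate cancer, so the values describe that line and not neuroendocrine tumours at large. The deposited values are MAS5 signals, a brightness on a linear scale, and a change is the difference of mean log2 signals between treated and vehicle arrays. The question was which genes respond in this line, where MYC is not lowered by the compound.

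I-BET762 blocks the acetyl-lysine pockets of the BET proteins, which hold transcription complexes and the elongation kinase P-TEFb at acetylated chromatin. In many cancer cells BET inhibition lowers MYC, a transcription factor that drives ribosome production and growth, and raises HEXIM1, which sequesters P-TEFb. Neuroendocrine prostate cancers express neuronal transcription factors such as INSM1, store peptides in secretory granules, and often have little androgen receptor signalling.

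The cell type markers fitted the label. All 10 neuroendocrine markers on the list (chromogranins, synaptophysin, NCAM1, INSM1, secretogranins and others) lay at or above a signal of 100 on all NCI-H660 arrays. Their summed signal was 45205 and 44330 on the vehicle arrays and 34533 and 36357 on the 0.5 µM arrays. Of 7 luminal prostate markers 3 reached 100 (KRT8, KRT18 and SLC45A3), and the prostate kallikrein KLK3 lay between 7.6 and 27.1. None of 5 basal markers did. NCI-H660 carries a TMPRSS2-ERG fusion, and the study reports high ERG transcript expression in this line. On these 4 arrays ERG lay only between 131.9 and 142.7, just over the floor of 100, with 1 detected probe set, so it adds little to the label. In the other lines ERG and ETV1 went against the labels, with ERG at 6884 and 7085 on the vehicle arrays labelled LNCaP and at 16.2 and 20.1 on those labelled VCaP, while ETV1 was at 407.8 and 342.8 on the latter. These arrays enter the shared estimate of spread and the comparison between lines. An exchange of the 2 labels as a whole would alter neither the spread nor the mean change of the other lines. The counts of calls, of list members that passed and of differences between lines are also given without these arrays. That fit has 6 residual degrees of freedom in place of 12 and so less power. A lower count there therefore does not show that a result rests on the labels. Replicate arrays of NCI-H660 correlated at 0.944 to 0.953 over all probe sets on the log2 scale.

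A total of 141 probe sets were called higher and 211 lower at 0.5 µM than in vehicle, 0.502% and 0.751% of those detected. A call needed a limma adjusted p under 0.1, a change over 2-fold and detection. By gene, with 1 probe set each, 68 were higher (0.558%) and 114 lower (0.935%). In all 182 both treated arrays lay beyond both vehicle arrays, which was also so for 31.6% (higher) and 31.8% (lower) of all detected genes. Without the fold minimum, 532 genes passed the test higher (4.36%) and 399 lower (3.27%), and "rose" and "fell" below refer to this test. The median log2 change of the called genes was 1.23 and -1.31. For 22 of the 68 and 39 of the 114 a group mean was under 100, so that their fold is only a lower bound. Of the others, 37 of 46 and 49 of 75 were under 2.5-fold. The median over all detected probe sets was 0.00. Centring each array on its median moved that median to 0.07 and turned the split to 157 higher and 143 lower. Without the arrays labelled LNCaP and VCaP the calls numbered 106 and 152, and 124 genes passed higher (1.02%) and 157 lower (1.29%) without the fold minimum. Leaving out 1 NCI-H660 array left 175 to 270 genes passing higher and 146 to 181 lower. The counts of most gene lists below were also lower in these fits. Leaving out any 1 of the 4 arrays left 99 to 138 probe sets lower (99 without vehicle replicate 1), and leaving out 0.5 µM replicate 1 left 91 higher. With the NCI-H660 arrays fitted alone, limma called 0 higher and 0 lower, while 224 and 555 were over 2-fold at p under 0.05 before adjustment.

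**Figure D1:**
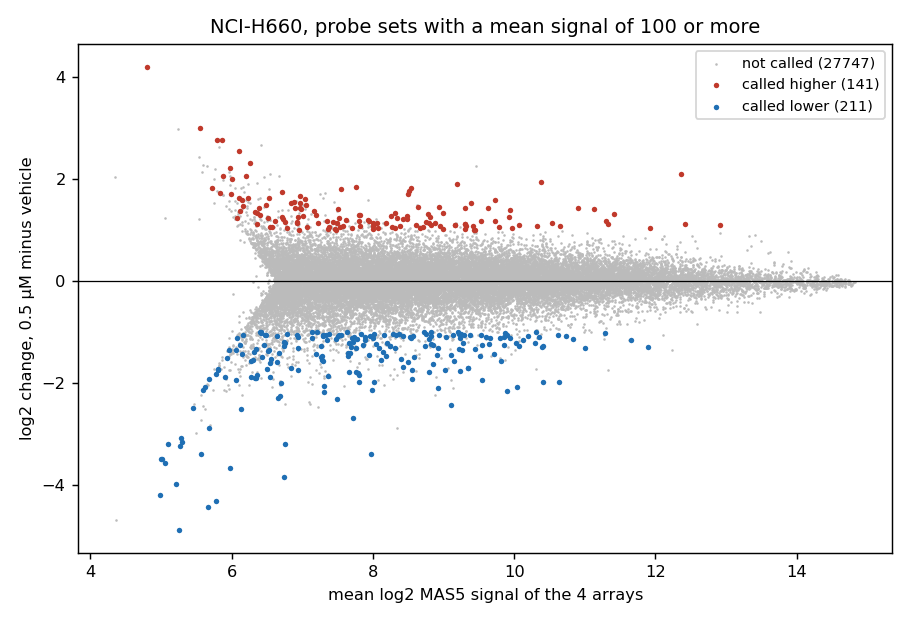
Log2 change at 0.5 µM (vertical) against the mean log2 MAS5 signal of the 4 NCI-H660 arrays (horizontal) for each of the 28099 detected probe sets. Red points are the 141 called higher, blue points the 211 called lower and grey points the rest; the steepest falls lie at the dim end, where signals reach background.

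The largest rise was that of DCXR, which encodes a carbonyl reductase of xylulose metabolism. Its signal was 2561 and 2507 in vehicle and 10728 and 10974 at 0.5 µM. The treated arrays lay far above vehicle, 4.28-fold higher, or 2.10 on the log2 scale (limma adjusted p = 3.09e-07, standard error 0.09). H4C8, a histone H4 gene, followed, at 198.4 and 199.6 against 763.7 and 641.9 (log2 1.81, adjusted p = 5.72e-05).

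Among the other large rises, the membrane protein gene TMEM158 went from 90.8 and 109.9 to 348.9 and 349.2, from about the detection floor to well above it. ADARB1, an adenosine deaminase that edits RNA, went from 180 and 214.9 to 700.5 and 640.5. Its 3 detected probe sets ranged from 0.07 to 1.77. EFNB2 encodes ephrin-B2, a membrane ligand of Eph receptors that guides axons and vessels. It went from 241.6 and 241.8 to 733.3 and 599.7 (log2 1.46, adjusted p = 6.67e-05), and no treated array came near vehicle.

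The remaining 10 of the 15 largest rises were TMEM191A, VASN, STK17A, H2AC8, TAOK3, H2BC5, GDPD5, NMT2, DGKQ and DHRS2, with log2 changes from 1.26 to 1.61. VASN binds TGF-beta, STK17A and TAOK3 are kinases, NMT2 attaches myristate to proteins, and DGKQ phosphorylates diacylglycerol. DHRS2, a dehydrogenase, was under 100 in vehicle (76.6 and 74.3) and at 305.2 and 173.2 with the compound, so it rose at least 2.39-fold. A second probe set of TAOK3 had a change of -0.06, and that gene's rise rests on 1 probe set.

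The largest fall was that of FJX1, a homologue of a fly Golgi kinase that acts in tissue growth. Its signal was 481.8 and 592 in vehicle and 109.2 and 62.6 at 0.5 µM, at least 5.37-fold lower (log2 -2.69, standard error 0.68, adjusted p = 0.0655). SRC, the founding tyrosine kinase oncogene, went from 497.6 and 565.5 to 150.1 and 96.2. Its fall of 2.14 on the log2 scale (adjusted p = 0.04) was seen with 1 probe set, and another had -0.38.

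GTF3C6 encodes a subunit of the TFIIIC factor of RNA polymerase III. It lay at 2596 and 2812 in vehicle and at 741 and 636.1 at 0.5 µM, and it fell by 1.98 on the log2 scale (standard error 0.14, adjusted p = 2.5e-05). At 10 µM it was lower still, at 279.9 and 234.7. ZNF618, a zinc finger gene, went from 455.4 and 429.8 to 117.2 and 106.5 (log2 -1.99, adjusted p = 0.000294).

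Several of the other large falls encode enzymes and membrane proteins. BEGAIN, a protein of the postsynaptic density, went from 1605 and 1351 to 371.8 and 389.5 (adjusted p = 0.00865). GALC, the lysosomal galactosylceramidase, went from 1072 and 1149 to 336.6 and 314.5 (adjusted p = 0.00408). TSPAN1, a tetraspanin of epithelia, went from 1127 and 1221 to 385.2 and 336. In all 3 the groups were far apart.

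LINC03007, GPX8, SIT1, GPR137, GSAP, ACOX2, GPNMB and RNF183 complete the 15, with log2 changes from -1.58 to -2.18. GPX8 is an endoplasmic reticulum peroxidase, GSAP a protein linked to gamma-secretase, ACOX2 a peroxisomal oxidase and RNF183 a ubiquitin ligase. For GPR137 the probe set used fell by 1.80, but its 3 detected probe sets ranged from -1.80 to 0.18, and the one brightest in NCI-H660 did not fall. SIT1 was at least 3.38-fold lower and ACOX2 at least 3.14-fold lower, since both were under 100 after treatment.

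**Figure D2:**
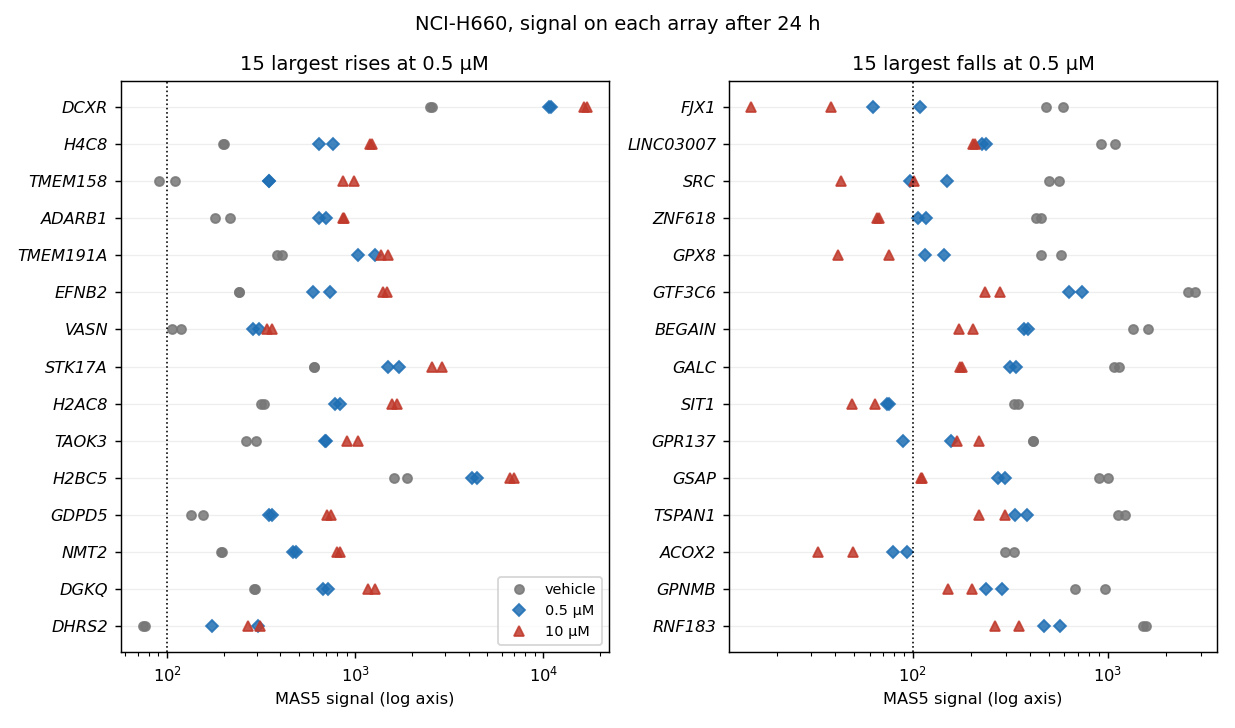
MAS5 signal (log axis) on each NCI-H660 array for the genes with the 15 largest rises (left) and the 15 largest falls (right) at 0.5 µM, ranked with group means under 100 set to 100. Grey circles are vehicle, blue diamonds 0.5 µM and red triangles 10 µM, 2 arrays each, with a dotted line at the floor of 100; in each row the blue points lie on one side of the grey ones.

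MYC did not pass the test. Its signal was 793.8 and 759.2 in vehicle and 887.1 and 839.8 at 0.5 µM, or 0.15 on the log2 scale (limma adjusted p = 0.605, standard error 0.10), with both treated arrays slightly above both vehicle arrays. MYCL, the family member of small cell cancers, was at 1251 and 1347 against 1105 and 1170 (log2 -0.19, limma adjusted p = 0.603). Its other detected probe set had -0.80 and did not pass either. MYCN was not detected, at 20.7 to 55.5. Of 10 detected genes of the MYC, MAX and MXD network none passed in limma (before adjustment, 2 were higher and 1 lower at p under 0.05), with a median log2 change of 0.09. MAX, the dimer partner, was at 3010 and 3126 against 3687 and 3950 (adjusted p = 0.13).

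The c-Myc targets on the list had a median log2 change of -0.01 over 35 detected members, beside 0.00 over all detected genes. Of these, 3 passed higher and 1 lower, or 8.57% and 2.86%, beside 4.36% and 3.27% of all detected genes. PPAT, the first enzyme of purine synthesis, rose by 0.45, POLR1B, a subunit of RNA polymerase I, by 0.44, and IMPDH2, the guanine nucleotide enzyme, by 0.42. NME1, a nucleoside diphosphate kinase, fell by 0.41. Of 34 detected ribosome biogenesis genes 3 rose and 0 fell (limma; 0 lower also at an unadjusted p under 0.05), with a median of 0.09. They were RRP12 (62.5 and 107.5 to 180.4 and 182, at least 1.81-fold), POLR1C and POLR1B. Their 8.82% stands beside 4.36% of all detected genes. None of the 34 passed without the arrays labelled LNCaP and VCaP (limma; 4 higher at an unadjusted p under 0.05), and leaving out 1 NCI-H660 array left 0 to 1. With the replicate number as a block no c-Myc target passed (limma; before adjustment, 5 were higher and 2 lower at p under 0.05), and after median centring 1 rose and 0 fell.

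The same c-Myc targets had medians of -0.85 (labelled LNCaP), -0.44 (labelled VCaP) and -0.18 (PC3) on the other lines' arrays. They passed lower for 28, 20 and 7 members there, where 15.1%, 12% and 3.96% of these 12191 genes did. The change in NCI-H660 minus the mean change of the other lines passed for 17 of 35 members, all positive, against 5.76% of all detected genes with a positive difference. For MYC itself this difference was 1.41 (adjusted p = 0.000162). Without the arrays labelled LNCaP and VCaP, MYC differed from PC3 by 1.07 (standard error 0.18, adjusted p = 0.167), and no c-Myc target passed (limma; 5 at an unadjusted p under 0.05).

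**Figure D3:**
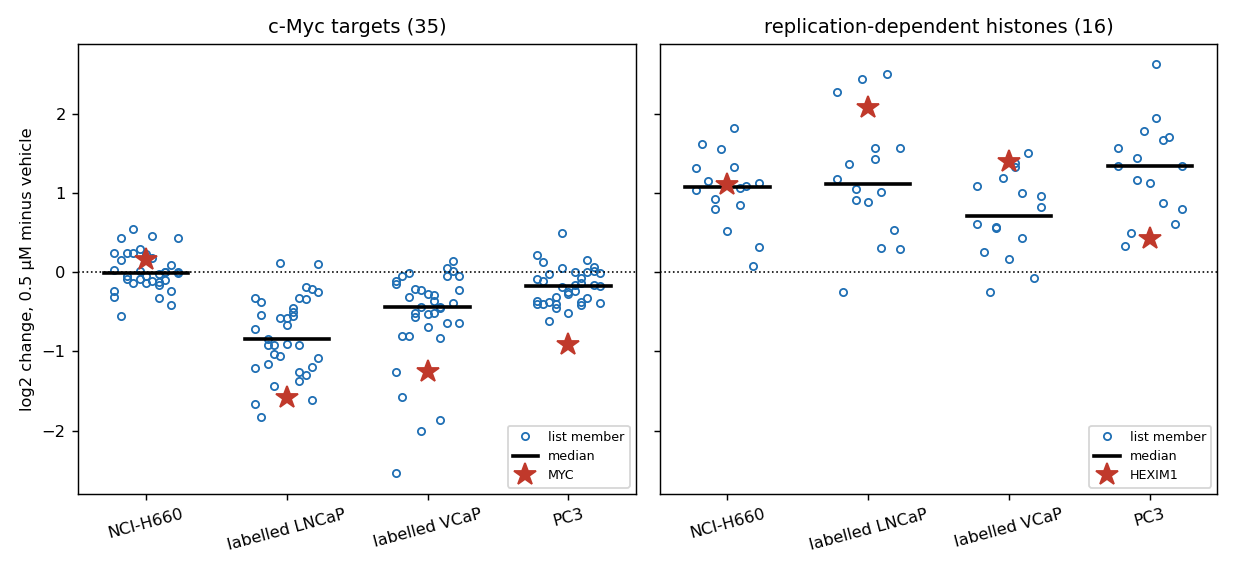
Log2 change at 0.5 µM against each line's own vehicle for the c-Myc targets (left, 35 genes) and the replication-dependent histones (right, 16 genes) detected in NCI-H660. Open circles are genes, black bars medians and red stars MYC (left) or HEXIM1 (right); for the c-Myc targets the NCI-H660 median is -0.01 and that of the arrays labelled LNCaP is -0.85, while the histone medians all lie above 0.

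HEXIM1 rose although MYC did not. Its signal went from 693.8 and 778.4 to 1757 and 1419 (log2 1.10, standard error 0.12, adjusted p = 0.00037), and stood at 2682 and 2640 with 10 µM. Its 3 detected probe sets ranged from -0.29 to 1.17. ELL2, an elongation factor of the P-TEFb complexes, rose from below the floor (16.1 and 64.5) to 147.4 and 111.4, at least 1.29-fold. With 1 probe set per gene, these were the only 2 of 15 detected BET and P-TEFb genes that passed (13.3%, beside 4.36% of all detected genes). The median log2 change was 0.11, and 1 passed without the arrays labelled LNCaP and VCaP. BRD2 was at 3395 and 3355 against 4052 and 4448 (log2 0.33, limma adjusted p = 0.147). The 3 detected probe sets of BRD2 ranged from 0.33 to 0.585, and 1 of them, not the one used, passed higher. BRD3 was at 3334 and 3559 against 3047 and 3452. CDK9, the P-TEFb kinase, was at 670 and 598 against 807.5 and 867.2 (adjusted p = 0.151).

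Replication-dependent histone genes rose as a group. They encode the histones that package new DNA in S phase, and their messages mostly end in a stem-loop in place of a poly(A) tail, while the labels name poly(A) mRNA as the material. Of 16 detected members 13 rose (81.2%, beside 4.36% of all detected genes), 0 fell (limma; 0 lower also at an unadjusted p under 0.05), and all 16 had both treated arrays above both vehicle arrays (31.6% of all detected genes did). The median log2 change was 1.07. Of the 13, 10 were called, and they are among the 68 called genes. Without the arrays labelled LNCaP and VCaP 9 passed, with the replicate number as a block 12 did, and leaving out 1 NCI-H660 array left 9 to 10.

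The linker histone H1-2 went from 2832 and 2620 to 5551 and 5612 (log2 1.03, adjusted p = 0.000141). H2AC6 went from 1680 and 1809 to 3558 and 4059, and H2BC5 from 1885 and 1597 to 4184 and 4436. H2BC21 went from 1114 and 1085 to 2306 and 2353. In each the treated arrays stood far above vehicle, with little spread between arrays.

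Among other members, H2AC8 went from 326.5 and 314.3 to 827.6 and 780.1 (log2 1.33), and H2BC4 from 71.6 and 65.9 to 189.1 and 214.5 (log2 1.55, at least 2.02-fold). The 3 that did not pass were H2BC12 (9470 and 8949 against 9496 and 10001), H4C11 (212.3 and 155.1 against 224.7 and 226.6) and H2AC17 (log2 0.92, adjusted p = 0.103). Histone genes are near-identical copies, so a probe set can read several of them, and the 16 are not 16 independent measurements. DNA replication genes, which are transcribed in the same phase, had a median of -0.06 over 59 members. POLE4 was higher and RFC3 lower (1.69% each, beside 4.36% and 3.27% of all detected genes).

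The promoters of 4 histone genes and of HEXIM1 are shown because these genes moved together. Each line is the 250 bases before the RefSeq transcription start, 5′ to 3′ on the gene's strand, in build GRCh38.p14. Capitals mark every match, on either strand, to CCAAT (the element bound by NF-Y), to the TATA-box letters TATAAA and to TGACGTCA (the cAMP response element). CACGTG (the E-box bound by MYC and MAX) and TGACTCA (the AP-1 element) were also searched and are not in these windows.
H4C8, chr6:26285535-26285784, minus strand: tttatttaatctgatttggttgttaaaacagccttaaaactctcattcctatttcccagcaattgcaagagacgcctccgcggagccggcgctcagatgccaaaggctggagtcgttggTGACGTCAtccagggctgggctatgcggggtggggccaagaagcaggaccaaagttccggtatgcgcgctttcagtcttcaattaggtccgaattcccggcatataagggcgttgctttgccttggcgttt
H2AC8, chr6:26216671-26216920, plus strand: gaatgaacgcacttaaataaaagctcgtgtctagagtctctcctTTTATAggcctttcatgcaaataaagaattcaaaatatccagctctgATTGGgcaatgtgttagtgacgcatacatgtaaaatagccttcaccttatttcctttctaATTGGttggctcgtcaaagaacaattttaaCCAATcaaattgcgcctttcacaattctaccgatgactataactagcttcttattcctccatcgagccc
H2BC5, chr6:26157871-26158120, plus strand: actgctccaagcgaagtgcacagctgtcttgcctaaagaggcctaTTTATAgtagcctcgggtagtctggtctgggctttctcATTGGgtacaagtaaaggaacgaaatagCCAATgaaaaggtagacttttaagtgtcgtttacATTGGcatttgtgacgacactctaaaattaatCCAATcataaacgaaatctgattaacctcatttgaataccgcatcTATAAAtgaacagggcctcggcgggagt
H2AC6, chr6:26123922-26124171, plus strand: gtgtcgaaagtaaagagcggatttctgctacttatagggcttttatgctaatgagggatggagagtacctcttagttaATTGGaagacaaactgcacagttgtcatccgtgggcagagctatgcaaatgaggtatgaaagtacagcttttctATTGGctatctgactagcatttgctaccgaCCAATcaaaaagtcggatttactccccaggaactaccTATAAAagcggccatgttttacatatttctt
HEXIM1, chr17:45148225-45148474, plus strand: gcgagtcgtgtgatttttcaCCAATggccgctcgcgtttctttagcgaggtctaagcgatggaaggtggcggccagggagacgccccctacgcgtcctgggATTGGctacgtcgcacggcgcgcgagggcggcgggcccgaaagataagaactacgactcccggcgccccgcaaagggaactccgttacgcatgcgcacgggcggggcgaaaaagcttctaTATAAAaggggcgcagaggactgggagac
H2BC5 and H2AC6 hold TATAAA 28 and 31 bases before the start, and HEXIM1 holds it 29 bases before. H2AC6 and H2BC4 lie head to head, and their 300-base windows (250 before to 50 after the start) share 255 bases.

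Over these 300-base windows, 13 of the 15 detected histone genes in the promoter table held CCAAT and 11 held TATAAA, that is 86.7% and 73.3%. Among all 27305 genes with such a window the shares were 39.7% and 14%. Among the called genes, CCAAT was in 59.3% of the 54 higher genes in the table and in 39.8% of the 93 lower ones, beside 43.2% of all detected genes. With the histone list left out it was in 52.3% of 44 higher genes. CACGTG was in 9.26% of the higher and 7.53% of the lower genes, beside 12.9% of detected genes. TGACGTCA was in 2 of the 15 histone windows (13.3%) and 2.25% of all, and CACGTG and TGACTCA, at 8.77% and 6.05% of all, were in none of the 15. A match describes these letters only and shows no binding.

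Of the 10 neuroendocrine markers none passed (limma; 1 was lower, and 0 higher, at p under 0.05 before adjustment), and INSM1 had the most negative change. INSM1, a zinc finger factor that specifies neuroendocrine cells, was at 7257 and 8165 in vehicle, at 3020 and 3032 at 0.5 µM and at 1491 and 1715 at 10 µM. The groups were far apart and the log2 change was -1.35, but the standard error was 1.04 (limma adjusted p = 0.695). That error pools the spread of all lines, and the vehicle arrays of INSM1 averaged 2.5 in PC3 and 18.6 in the line labelled VCaP, near background. With signals under 50 raised to 50 before the log2 step, the same change had a standard error of 0.07 (adjusted p = 8.71e-08). Raised arrays then have no spread, so this second error is too small for such genes, and both are given.

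DDC, the decarboxylase that makes dopamine and serotonin, was at 4605 and 4851 in vehicle and at 2114 and 2139 at 0.5 µM (log2 -1.15, adjusted p = 0.264, and 1.11e-05 with signals raised to 50). GRP, the gastrin-releasing peptide, was at 561.4 and 666.4 against 176.2 and 166 (log2 -1.84, adjusted p = 0.359, and 3.74e-08). NEUROG3, a proneural factor, was at 1280 and 1456 against 658.3 and 677.1 (log2 -1.03, adjusted p = 0.654, and 3.09e-08). None of these passed as deposited, and all 3 passed with raised signals, as did 1272 of all detected genes lower (10.4%) and 1300 higher (10.7%).

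As deposited, 1 of 23 detected neuroendocrine transcription regulators passed (4.35% lower, beside 3.27% of all detected genes). It was MYT1, at 319.6 and 247.5 against 143.5 and 135.8, which fell by 1.01 (limma adjusted p = 0.0743). Its 3 detected probe sets ranged from -1.01 to -0.02, and after median centring none of the 23 passed (limma; before adjustment, 1 was higher and 3 lower). With the arrays labelled LNCaP and VCaP left out, MYT1 did not pass (adjusted p = 0.187) and 1 other gene of the list was lower. With raised signals 6 of 23 passed lower (INSM1, NEUROG3, NHLH2, MYT1, LHX2 and SOX2) and 1 higher, ELAVL3, an RNA-binding protein of neurons. The median log2 change of the list was -0.23, and 14 of 23 members had both treated arrays below both vehicle arrays (31.8% of all detected genes did). Of 21 granule and neuropeptide genes 0 passed as deposited (limma; 4 lower at an unadjusted p under 0.05) and 5 were lower with raised signals (SCG5, GRP, DDC, CALCB and CADPS), with a median of -0.31. The raised signals also more than doubled the passes over all detected genes, to 10.4% lower and 10.7% higher. The counts of these lists stand beside those shares, and whether they differ from them was not tested.

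Other markers of neuronal identity had changes nearer 0. CHGA, the chromogranin of secretory granules, was at 2592 and 2545 against 1860 and 2049 (log2 -0.40, adjusted p = 0.924). ENO2 was at 10966 and 9390 against 8751 and 9233, and UCHL1 at 12384 and 11430 against 11928 and 13168. SYP, the synaptophysin gene, overlapped between groups, at 234.3 and 154.6 against 171.3 and 195.2. NKX2-1, a lung and small cell cancer factor, was at 7320 and 7240 against 6796 and 5915 (log2 -0.20). Of 38 synaptic and neuronal genes 0 passed (limma; before adjustment, 1 was higher and 1 lower at p under 0.05), with a median of -0.07.

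**Figure D4:**
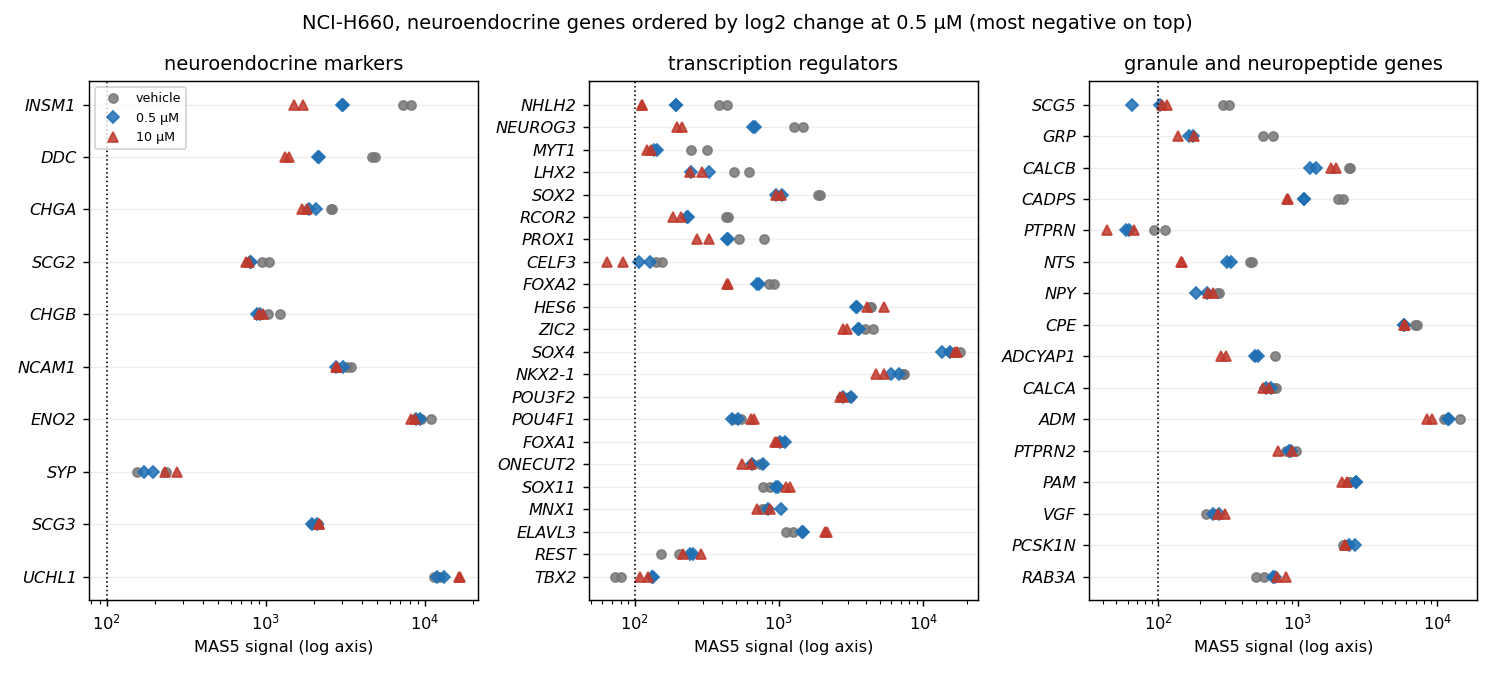
MAS5 signal (log axis) on each NCI-H660 array for the neuroendocrine markers (left), the other detected neuroendocrine transcription regulators (middle) and the other detected granule and neuropeptide genes (right), with the most negative log2 change at 0.5 µM on top. Grey circles are vehicle, blue diamonds 0.5 µM and red triangles 10 µM, and the dotted line is the floor of 100; INSM1, DDC, NEUROG3 and GRP lie well left of vehicle while SYP, SCG3 and UCHL1 stay close to it.

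GRP and NEUROG3 belong to a wider set. In 323 detected genes (2.65%) the mean vehicle signal of all 3 other lines was under 50. Their median standard error was 0.78, against 0.16 for the other detected genes, and their median log2 change was -0.32. Of these 323, 1 was called higher and 12 lower as deposited, and 7 and 54 with raised signals, or 16.7% lower, against 1.9% of the other genes. The 323 were chosen by signals under 50 in the other lines, which the raising leaves without spread. Their error is then too small, so the 16.7% and the 1.9% cannot be compared as a trait of these genes. Over all detected genes the raised signals gave 89 higher and 279 lower, holding 67 of the 68 and 111 of the 114 above. Other genes called only then, named after their values were seen, include POU2AF1, a coactivator of octamer factors (568.2 and 588.9 against 145.7 and 135.2), and HAPLN1, a linker of the hyaluronan matrix (4459 and 5037 against 1486 and 1326).

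Of 69 detected mitosis genes 5 fell (7.25%, beside 3.27% of all detected genes), 0 rose (limma; 0 higher also at an unadjusted p under 0.05), and the median log2 change was -0.19. ESPL1, the separase that splits sister chromatids, was at 3573 and 3295 against 2269 and 2428 (log2 -0.55, adjusted p = 0.022). BUB1B, the checkpoint kinase BubR1, was at 3815 and 3544 against 2635 and 2752, PRC1, which bundles midzone microtubules, fell by 0.41, and PBK, a mitotic kinase, fell by 0.49. BIRC5, the survivin gene, was the last of the 5. None of the 69 passed after median centring (limma; 10 lower at an unadjusted p under 0.05) or without the arrays labelled LNCaP and VCaP (limma; 16). Leaving out 1 NCI-H660 array left 0 to 2, and the block left 1. Of 27 G1 cyclin, E2F and CDK inhibitor genes 0 passed (limma; 1 higher at an unadjusted p under 0.05), and CDKN1A, which encodes p21, was at 2940 and 3111 against 3234 and 3522.

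In the cell death list 3 of 34 genes fell (8.82%, beside 3.27% of all detected genes) and 0 rose, with a median of -0.10. BID, a BH3-only protein, went from 672.1 and 585.6 to 408.9 and 285.3 (log2 -0.88, adjusted p = 0.0172), BOK, a pore-forming relative, from 1094 and 1117 to 702.3 and 649.7, and BIRC5 from 3218 and 2903 to 2387 and 2292. BID and BOK promote death and BIRC5 opposes it. The 3 detected probe sets of BID ranged from -0.96 to -0.06. Those of BIRC5, 4 in number, ranged from -0.39 to 0.27, and only 1 passed lower. BCL2, the survival factor, was at 2050 and 2181 against 1588 and 1456 and at 802 and 811 with 10 µM, lower at each dose, but its log2 change of -0.48 at 0.5 µM had a standard error of 0.72 (adjusted p = 0.898). MLKL, the effector of necroptosis, was not detected, at 13.7 to 37.3. Without the arrays labelled LNCaP and VCaP no gene of the list passed (limma; before adjustment, 2 were higher and 7 lower at p under 0.05). Of 24 p53 targets 3 rose (12.5%, beside 4.36%) and 1 fell (4.17%). None did without the arrays labelled LNCaP and VCaP (limma; before adjustment, 5 were higher and 1 lower), and leaving out 1 NCI-H660 array left 0 to 1 higher and 1 lower. FAS, the death receptor, went from 311.3 on both vehicle arrays to 140.9 and 147.4 (log2 -1.11, adjusted p = 0.0111), and RRM2B, a ribonucleotide reductase subunit, rose by 0.68.

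The interferon list had the lowest median of the lists with 10 or more detected genes, -0.44, with 24 of 30 members below vehicle on both treated arrays (31.8% of all detected genes were). Of the 30, 4 fell (13.3%, beside 3.27%) and 1 rose, and the counts were also 4 and 1 without the arrays labelled LNCaP and VCaP. Leaving out 1 NCI-H660 array left 2 to 3 lower. ISG20, an antiviral exonuclease, went from 949.3 and 945 to 387.1 and 366.3 (log2 -1.33, adjusted p = 0.00346). HERC6 went from 191.7 and 173.4 to 96.4 and 95.7 (at least 1.83-fold lower), CMPK2, a mitochondrial nucleotide kinase, from 427.7 and 437.6 to 247.3 and 207.2, and PARP9 fell by 0.56. IRF7, the factor that amplifies interferon production, went the other way, from 1107 and 918 to 1828 and 1859 (log2 0.87, adjusted p = 0.00776). With raised signals 15 passed lower and 2 higher, where 10.4% and 10.7% of all detected genes did. On the arrays of the other lines the medians of these genes were -0.04 (labelled LNCaP), -0.04 (labelled VCaP) and -0.42 (PC3).

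Leukocyte markers were low on all arrays, with 1 of 8 at 100 or more, CD74 (267.3 and 263.9 against 156 and 191.2), while PTPRC lay between 11.8 and 45.4. Their summed signal was 519.7 and 518.8 in vehicle and 344.1 and 441 at 0.5 µM, and its part in the interferon values was not tested. In the NF-kB list 2 of 18 rose (11.1%, beside 4.36% of all detected genes) and 1 fell (5.56%, beside 3.27%). NFKBIZ, an atypical IkB protein, went from 644.3 and 655.6 to 1104 and 1106 (adjusted p = 0.00809), NFKB2 crossed the floor (at least 1.28-fold higher), and TNFAIP2 fell by 1.28. JUN, an AP-1 subunit, went from 2380 and 2649 to 4429 and 4483 (log2 0.83, adjusted p = 0.00975) and ATF3, a stress-induced factor, rose by 0.53. They were the only 2 of 26 AP-1 and immediate early genes that passed (7.69% higher, beside 4.36% of all detected genes). In the NF-kB list 1 gene was lower and 0 higher without the arrays labelled LNCaP and VCaP (limma; 2 higher before adjustment), and no AP-1 gene passed (limma; before adjustment, 4 were higher and 2 lower).

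Of 36 autophagy and lysosome genes 5 rose (13.9%, beside 4.36% of all detected genes) and 0 fell. WIPI1, which binds phosphoinositides on forming autophagosomes, went from 131.3 and 160.1 to 286.7 and 307.6 (log2 1.03), NEU1, the lysosomal sialidase, from 288.6 and 337.9 to 624.2 and 619.9 (log2 0.99, adjusted p = 0.000631), and LAMP2, a lysosomal membrane protein, from 4256 and 4070 to 5962 and 6092. MITF, a regulator of lysosomal genes, rose by 0.70. GALC, named above, is a lysosomal enzyme that fell and is not on the list. The median of the list was 0.00. Only 2 passed higher without the arrays labelled LNCaP and VCaP, and leaving out 1 NCI-H660 array left 2 to 3.

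Of 27 cholesterol and fatty acid synthesis genes 4 rose (14.8%, beside 4.36%) and 0 fell, with a median of 0.11. Just 1 passed without the arrays labelled LNCaP and VCaP, and leaving out 1 NCI-H660 array left 2 to 3. LSS, the lanosterol synthase, went from 1384 and 1464 to 2331 and 2476 (log2 0.76), DHCR7, the last enzyme of cholesterol synthesis, rose by 0.62, TM7SF2 by 0.67 and ACACA, the acetyl-CoA carboxylase, by 0.59. A second probe set of LSS had 0.03, and one of ACACA had -0.05. HK1, the hexokinase that starts glycolysis, was the only 1 of 37 hypoxia and glycolysis genes that passed, at 2486 and 1914 against 3916 and 4153.

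Matrix genes were mixed, with 2 higher and 2 lower (5.71% each, beside 4.36% and 3.27% of all detected genes). VCAN, the versican core protein, went from 968.8 and 992.3 to 400.3 and 365 (log2 -1.36, adjusted p = 0.0339), TIMP2, a metalloprotease inhibitor, fell by 0.79, SERPINE2 rose at least 1.55-fold and CDH1 by 0.39, of 35 detected members. COL1A2, a type I collagen chain, was at 1126 and 1209 against 243.4 and 299.5 (log2 -2.11, adjusted p = 0.112, and 0.0116 with raised signals). It is also a fibroblast marker, and 4 of that list's 10 members were detected. Their list summed to 3284 and 3145 in vehicle and 1766 and 1922 at 0.5 µM, mostly COL1A2 and VIM, while DCN, LUM, PDGFRB and FAP stayed between 4.4 and 38.3.

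In each of the Notch, Wnt and growth factor lists 1 gene passed, of 26, 22 and 26. Over all detected genes 4.36% passed higher and 3.27% lower, and the counts of this paragraph stand beside those shares. JAG1, a Notch ligand, rose by 0.69, LGR4, a Wnt co-receptor, at least 1.10-fold (60.2 and 72.9 to 113.8 and 105.7), and ETV5, an ETS factor downstream of ERK, crossed the floor from 30.8 and 42.1 to 161.4 and 139.3 (at least 1.5-fold). The only gene of 27 in the TGF-beta list that passed was ID2, a BMP target that blocks differentiation factors, which went from 4013 and 4040 to 2798 and 2959 (log2 -0.48, adjusted p = 0.0507). Of 16 ion channel and receptor genes KCNMA1, a potassium channel, passed and dropped under the floor, from 158.1 and 122.6 to 21.2 and 16.7 (at least 1.40-fold lower). ARRDC1 rose by 0.72 (1 of 5 arrestin-domain genes), the co-chaperone BAG3 by 0.48 (1 of 23 heat shock and proteasome genes), and the methyltransferase DNMT3A fell by 0.58 (1 of 53 chromatin regulators). Of 15 androgen-regulated genes ELL2 alone passed. Without the arrays labelled LNCaP and VCaP, ETV5, KCNMA1 and ARRDC1 still passed, and no gene of the Notch, Wnt, TGF-beta, hypoxia, heat shock, androgen-regulated and chromatin lists did (limma; before adjustment 1 to 3 higher and 0 to 5 lower in each). None of 39 unfolded protein and ATF4 response genes and none of 18 genes reported with ERG passed (limma; before adjustment, 1 higher with 2 lower, and 1 higher with 1 lower, at p under 0.05).

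**Figure D5:**
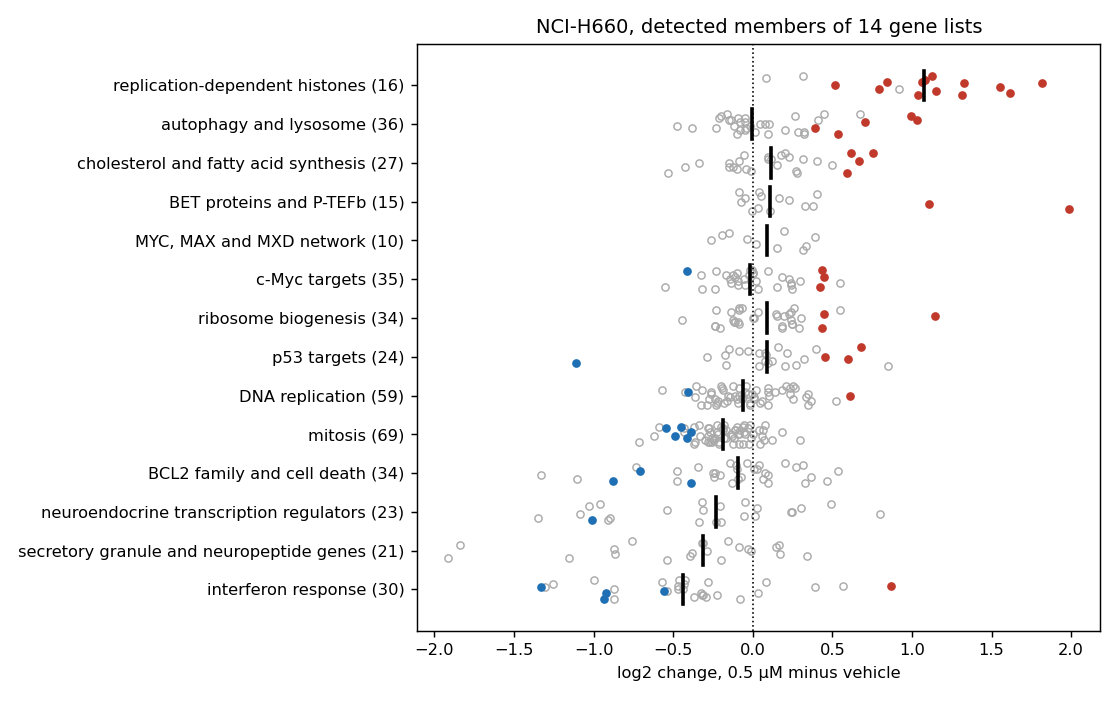
Log2 change at 0.5 µM against vehicle in NCI-H660 for the detected members of 14 gene lists, with the number of members in parentheses. Filled red circles passed the test higher, filled blue circles passed lower, open grey circles did not pass, and black bars are medians; the histone median is 1.07 and that of the interferon list is -0.44.

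The 10 µM arrays show where these genes stood at the higher dose. Both doses are compared with the same vehicle arrays, whose spread enters both changes, so the values are set side by side with no test of likeness. The median log2 change of the 68 and 114 genes was 1.80 and -1.87 at 10 µM, beside 1.23 and -1.31 at 0.5 µM. Set directly against the 0.5 µM arrays, which also chose these genes, 32 of the 68 passed higher at 10 µM and 28 of the 114 lower, beside 3% and 4.07% of all detected genes. IGFL2, an IGF-like family gene, came back, at 250.3 and 224.2 in vehicle, 16.5 and 7.2 at 0.5 µM and 135.1 and 127.4 at 10 µM. Over all detected probe sets 803 were called higher (2.84%) and 1556 lower (5.51%) at 10 µM. Median centring turned that split to 1338 and 1102. MYC was at 1359 and 1219 at 10 µM (log2 0.73, adjusted p = 0.000286), above both other groups.

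Each of the other lines has its own vehicle arrays. The 68 higher genes were detected there for 66 (labelled LNCaP), 64 (labelled VCaP) and 63 (PC3), and the 114 lower genes for 86, 79 and 92, so that some of the lower genes could not be called. Of the 68 higher genes 24 (35.3%) were also called higher in cells labelled LNCaP, 12 (17.6%) in cells labelled VCaP and 14 (20.6%) in PC3, where 3.36%, 1.09% and 0.861% of these 12191 genes were called. They are 5.27%, 8.11% and 11.3% of all genes called higher there. Of the 114 lower genes 27 (23.7%), 15 (13.2%) and 9 (7.89%) were shared, beside 3.53%, 3.66% and 0.64% of the 12191 genes, and they are 5.04%, 3.03% and 7.32% of those lines' lower calls. No other line called 36 of the higher and 77 of the lower genes, and 16 of these 77 had vehicle means under 100 in all 3 lines. Without the fold minimum the shares that passed the same way were larger, at 66.2%, 44.1% and 45.6% of the higher and 37.7%, 26.3% and 20.2% of the lower genes. Of the 12191 genes 16.4%, 10.9% and 6.38% passed higher there and 15.1%, 12% and 3.96% lower.

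All 4 lines called 5 genes higher and 3 lower. The higher ones were the histone genes H2AC8, H2BC21, H2BC4, H2BC5 and H4C8, and the lower ones FAS, ZNF618 and KCTD15, a repressor of neural crest genes (1293 and 1176 against 487.1 and 562.8). The histone list passed higher for 13, 11 and 14 of its 16 members in the other lines, beside 16.4%, 10.9% and 6.38% of the 12191 genes.

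The difference between the change in NCI-H660 and the mean change of the other lines was called for 196 probe sets (0.698%) as higher and 282 (1%) as lower. It passed in the direction of the change for 27 of the 68 and 55 of the 114 genes, beside 5.76% and 3.64% of all detected genes, but it uses the same NCI-H660 arrays, so these counts are not independent of the calls, and 12 of the 55 had vehicle means under 100 in all 3 other lines. Median centring turned the split to 379 higher and 153 lower, and without the arrays labelled LNCaP and VCaP 13 and 26 were left. The largest positive differences among called genes were those of CDC42EP2, an effector of CDC42 (31.4 and 37.7 to 146 and 201.9, difference 3.20, adjusted p = 2.81e-05), HEG1, CFAP73, ELL2 and NFKB2, and all 5 had a vehicle mean under 100 in NCI-H660, so their rises are bounds of 1.28-fold to 2.23-fold. A second probe set of HEG1 had 0.09, and one of CFAP73 had -0.15. CDC42EP2 and HEG1 were called lower in cells labelled LNCaP (-1.42 and -1.005) and labelled VCaP (-1.28 and -1.31), and these falls enter their differences. DCXR rose in all lines, by 0.47 (labelled LNCaP), 0.43 (labelled VCaP) and 1.06 (PC3), less than in NCI-H660 (difference 1.45, adjusted p = 7.42e-05). Against PC3 alone the difference was 1.04 (adjusted p = 0.136). The most negative values were those of IGFL2, RAMP2, MYO18B, LTF and TMEM176A, which lay between 108.3 and 250.3 in NCI-H660 vehicle and between 6.7 and 16.8 at 0.5 µM. Their falls reached background, so only bounds of 1.09-fold to 2.37-fold can be given. In the other lines their vehicle means were 4.6 to 28.4, at background, where no fall could be measured, so these values do not show that the lines respond differently.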

How the data were processed

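RNA of 24 cultures was hybridised to expression arrays, 2 per line and dose. The deposited signal values were made by the authors with MAS5, which subtracts mismatch intensity and scales every array to a trimmed mean of 500. The files name no genome build, and gene names came from the platform annotation: 41091 of 54613 non-control probe sets had 1 symbol, 1801 several and 11721 none.

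The log2 signals of all 12 groups were fitted with limma 3.58.1 in R 4.3.3 (12 residual degrees of freedom), with Benjamini-Hochberg adjustment over all 54613 probe sets. A gene took its brightest probe set over all arrays, avoiding those ending in _x_at only where another existed. H2BC5 was read from such a probe set. Group means under 100 were set to 100 for bounds and for ranking. Named genes were the 15 largest rises and falls, fixed regulators, up to 4 members per list and the 5 largest differences each way. Genes and lists were chosen with earlier results of these data known. The alternatives tried were other floors, normalizations, error models, probe sets and thresholds, leaving out each array, and a replicate block. Promoters came from RefSeq (GRCh38.p14). Some genes are not reported here. The number of arrays limits the precision. The p-values rest on the spread between replicate cultures pooled over all 4 lines, while each change in NCI-H660 comes from cultures of 1 line.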

Additional observations from a re-analysis of the deposited data

Results flagged for a closer look

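For 26 named genes the log2 change at 0.5 µM in NCI-H660 differed from the mean change of the other lines by over 2-fold in limma's test of that difference (adjusted p under 0.1). The test uses the same NCI-H660 arrays that gave the calls.

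Signals under 100 depend on the background, so differences that rest on them are measured values and not sizes of effect. The negative differences among genes that ended under this detection floor were -4.90 for IGFL2, -4.57 for RAMP2, -3.63 for MYO18B, -3.28 for LTF, -3.28 for TMEM176A, -2.49 for SIT1 and -1.86 for KCNMA1. The first 6 of these genes had vehicle means under 100 in all 3 other lines, where a fall could not be measured. With signals under 50 raised to 50 the 7 values were -2.24, -1.44, -1.63, -1.56, -1.12, -2.18 and -0.44. The last did not pass then (KCNMA1). Those among genes still detected were -1.98 for BEGAIN, -1.97 for LINC03007 (vehicle means of 43 to 45.1 in the other lines), -1.92 for GPR137, -1.69 for VCAN, -1.61 for GALC, -1.17 for GPX8 and -1.02 for GTF3C6. Vehicle means were also under the floor for BEGAIN (63.6, labelled VCaP), VCAN (41.3, labelled LNCaP), GALC (29.7, PC3) and GPX8 (66.8, labelled LNCaP).

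The positive differences were 3.20 for CDC42EP2, 2.06 for HEG1, 1.93 for CFAP73, 1.89 for ELL2, 1.88 for NFKB2 and 1.79 for RRP12, all with a vehicle mean under the floor. With raised signals these 6 were 2.66, 2.01, 1.85, 1.07, 1.53 and 1.79. For genes detected in vehicle they were 1.45 for DCXR, 1.41 for MYC, 1.29 for TMEM158, 1.15 for EFNB2, 1.14 for POLR1B and 1.11 for VASN. MYC stands here because it fell in each of the other lines and not in NCI-H660, with changes of -1.59 (labelled LNCaP), -1.26 (labelled VCaP) and -0.92 (PC3).

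All 26 kept their sign against PC3 alone, and 5 passed there, which were LTF (adjusted p = 0.0758), BEGAIN (0.0987), GALC (0.0643), TMEM158 (0.0362) and CDC42EP2 (0.0984). The PC3 vehicle means of LTF, BEGAIN and GALC were 7.9, 81 and 29.7, under the floor, where a fall could not be measured. After median centring 24 passed (not MYO18B and GPX8), and with signals raised to 50, 25 passed (not KCNMA1).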

How the results depend on the processing

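With no detection floor, 268 probe sets were called higher and 412 lower at 0.5 µM, 3657 in either direction at 10 µM, 601 between the doses, and 320 higher and 531 lower for the difference from the other lines. Median centring gave 379 and 153 for that difference. Raising signals under 50 to 50 gave 575 lower at 0.5 µM, 588 lower for the difference and 514 between the doses. With the NCI-H660 arrays fitted alone, limma called 0 higher and 0 lower at 0.5 µM (224 and 555 over 2-fold at an unadjusted p under 0.05) and 0 between the doses (570). This fit has 3 residual degrees of freedom. Without the arrays labelled LNCaP and VCaP the difference, then from PC3 alone, was called for 13 higher and 26 lower, and 148 were called between the doses. An adjusted p under 0.05 left 187 lower for the difference.

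Leaving out each NCI-H660 array in turn gave 91 to 174 higher and 99 to 138 lower at 0.5 µM, 143 to 226 higher and 145 to 178 lower for the difference, 179 to 262 between the doses and 2009 to 2293 at 10 µM. The 91 and the 179 came without 0.5 µM replicate 1, and the 99 without vehicle replicate 1. Why these counts moved was not tested.

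With the replicate number as a block, 122 were higher and 160 lower, and 268 of the 352 calls remained. The labels do not say whether same-numbered replicates were cultured together. Same-numbered arrays deviated with a correlation of -0.01 (vehicle and 0.5 µM), which shows no common deviation but cannot settle the pairing. Of 110 named gene results, 82 stayed on the same side of the threshold under the block, 90 after median centring, 66 without the arrays labelled LNCaP and VCaP and 18 with NCI-H660 alone. Only GPR137 reversed, to 0.18 with its probe set brightest in NCI-H660. Dim probe sets limit the falls, which reach background for 39 of the 114 genes.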
